A study of Mus musculus with 9 samples.

Results

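The 9 genes described here form the core of the transcriptional control of mitochondrial biogenesis: the PGC-1 coactivators Ppargc1a, Ppargc1b and Pprc1, the nuclear transcription factors Nrf1 and Esrra that they act through, and the mitochondrial transcription proteins Tfam, Tfb1m, Tfb2m and Polrmt. They were taken as the genes whose symbols annotate probe sets of the array, which gave 11 probe sets for the 9 genes, of 19938 genes with a probe set of a single symbol. All 9 passed the filter on dim probe sets, as did 9864 genes of the whole table. Ppargc1a passed it through the cells given Cugbp1 or Mbnl1 siRNA, since its control arrays lay below the filter. The cells were C2C12, a mouse myoblast line, given an siRNA against Cugbp1 (current symbol Celf1), an siRNA against Mbnl1 or a control siRNA. Both targets are RNA-binding proteins that regulate splicing and mRNA stability. Every culture then received 5 ug/ml actinomycin D, an inhibitor of transcription, and total RNA was taken at 0, 2.5 or 5 h, so that loss over time follows mRNA decay. A single array was run per siRNA at each time, 9 in all with no replicates, and the labels do not say whether cultures were separate. How many siRNAs each target received was not stated in the labels. All values are RMA intensities, and a difference is on the log2 scale with its SE, over 3 arrays per siRNA or per time.

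PGC-1 coactivators do not bind DNA themselves. They dock on transcription factors such as the nuclear respiratory factors and the estrogen-related receptors and recruit the machinery that turns on nuclear genes of the respiratory chain and of mitochondrial DNA upkeep. In skeletal muscle, Ppargc1a is induced by contraction, fasting and adrenergic signals. The proteins at the far end of the cascade work inside the organelle: Polrmt is the RNA polymerase of mitochondrial DNA, Tfam packages that DNA and bends its promoters, Tfb2m melts the promoter together with Polrmt, and Tfb1m is mainly a methyltransferase of the small ribosomal RNA.

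The promoter windows of the members whose levels differed most under the siRNAs, and that of Polrmt, are shown. They were searched for short motifs through which this cascade is usually described. Windows of 300 bases, from 250 before to 50 after the start of the gene, were used for 8 of the 9 genes from RefSeq promoters of GRCm38.p6. A chromosome was left out when member windows were taken, and no window of Ppargc1b was used. Capitals mark matches, on either strand, to the NRF1 core (GCGCA, then any base, then GCGC), the ETS site CCGGAAGT bound by GABP, the estrogen-related receptor element TCAAGGTCA, the cAMP response element TGACGTCA, its half-site TGACG and the GC box GGGCGG. The half-site, which also lies inside the full element, was added after the windows had been read. Positions count from 1 at the start base, with the base before it at −1.
Ppargc1a, chr5:51567676-51567975, minus strand: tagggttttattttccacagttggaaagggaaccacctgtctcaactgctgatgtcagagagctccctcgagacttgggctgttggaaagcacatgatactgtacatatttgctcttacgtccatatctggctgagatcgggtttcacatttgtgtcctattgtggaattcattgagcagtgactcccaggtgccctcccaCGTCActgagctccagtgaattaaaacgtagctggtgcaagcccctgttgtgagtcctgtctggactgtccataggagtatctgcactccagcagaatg
Tfam, chr10:71237995-71238294, minus strand: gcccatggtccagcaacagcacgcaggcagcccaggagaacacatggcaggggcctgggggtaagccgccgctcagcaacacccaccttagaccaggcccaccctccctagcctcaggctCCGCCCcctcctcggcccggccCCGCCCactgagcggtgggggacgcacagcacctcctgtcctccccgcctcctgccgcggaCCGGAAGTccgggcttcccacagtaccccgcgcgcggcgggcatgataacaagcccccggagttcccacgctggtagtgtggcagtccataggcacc
Tfb1m, chr17:3557706-3558005, minus strand: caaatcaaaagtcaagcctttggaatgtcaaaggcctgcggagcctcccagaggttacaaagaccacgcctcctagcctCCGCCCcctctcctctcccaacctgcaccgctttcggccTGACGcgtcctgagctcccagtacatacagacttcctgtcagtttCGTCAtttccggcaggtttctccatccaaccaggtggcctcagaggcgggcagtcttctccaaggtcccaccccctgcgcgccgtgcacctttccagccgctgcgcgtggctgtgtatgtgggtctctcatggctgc
Polrmt, chr10:79746532-79746831, minus strand: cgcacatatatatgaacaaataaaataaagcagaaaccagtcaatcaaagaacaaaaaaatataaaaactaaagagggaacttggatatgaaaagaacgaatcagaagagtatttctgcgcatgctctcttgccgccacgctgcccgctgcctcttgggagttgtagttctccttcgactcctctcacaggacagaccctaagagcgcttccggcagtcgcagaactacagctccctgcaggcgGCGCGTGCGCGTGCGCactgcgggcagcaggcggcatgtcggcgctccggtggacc

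The Ppargc1a window had a GC content of 48.7%, against a median of 52.7% over all 32851 windows. Its only marked match was a single cAMP half-site from −49 to −45. The Tfam window, with a GC content of 70.3%, held an ETS site from −47 to −40 and 2 GC boxes. The Tfb1m window held 1 GC box and 2 half-sites. The Polrmt window carried 2 overlapping matches to the NRF1 core, from −6 to 4 and from 1 to 10, across the start base itself. Over all windows the NRF1 core was found in 4.6%, the ETS site in 3.89%, the full cAMP element in 1.79%, the estrogen-related receptor element in 0.423%, the half-site in 20.8% and the GC box in 35.7%. No member window held the full cAMP element or the receptor element. The NRF1 core was matched only in the Polrmt window and the ETS site only in that of Tfam. Of the windows not shown, those of Tfb2m and Esrra and the first of Nrf1 held GC boxes only. Those of Pprc1 and the second of Nrf1 held no match. These matches describe letters in a window and are no measure of binding.

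The knockdowns were visible in the target mRNAs. Celf1 in cells given Cugbp1 siRNA stood at 30.9%, 22.1% and 21.6% of the control intensity at 0, 2.5 and 5 h, and Mbnl1 in cells given Mbnl1 siRNA at 21.95%, 18.3% and 15.9%. Cells given Mbnl1 siRNA also had less Celf1, 61.6% to 72.4% of control, so their differences from control include a lower level of the other target. A second, dimmer Celf1 probe set stood there at 78.9%, 53.45% and 49.2% of control at 0, 2.5 and 5 h. All 8 myoblast markers tested passed the filter, and none of 8 brown and white adipocyte markers did. The median intensity of an array ranged from 104.92 to 113.01.

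Ppargc1a was the member that differed most between the siRNAs. In cells given Cugbp1 siRNA its intensity was 313.7, 222.3 and 219.9 at 0, 2.5 and 5 h. In cells given Mbnl1 siRNA it was 561.4, 284.1 and 193.8. In control cells it was 152.8, 108.7 and 93.3. Every array of either knockdown was above every control array, and the highest single reading was that of Mbnl1 siRNA before the arrest. The excess over control was 2.05-fold, 2.04-fold and 2.36-fold under Cugbp1 siRNA, about level over time. Under Mbnl1 siRNA it was 3.67-fold, 2.61-fold and 2.08-fold, largest at 0 h and smallest at 5 h. The control intensities lie close to the median of all probe sets on an array, where background makes up part of the signal, so a true fold may be larger than the measured one.

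**Figure D1:**
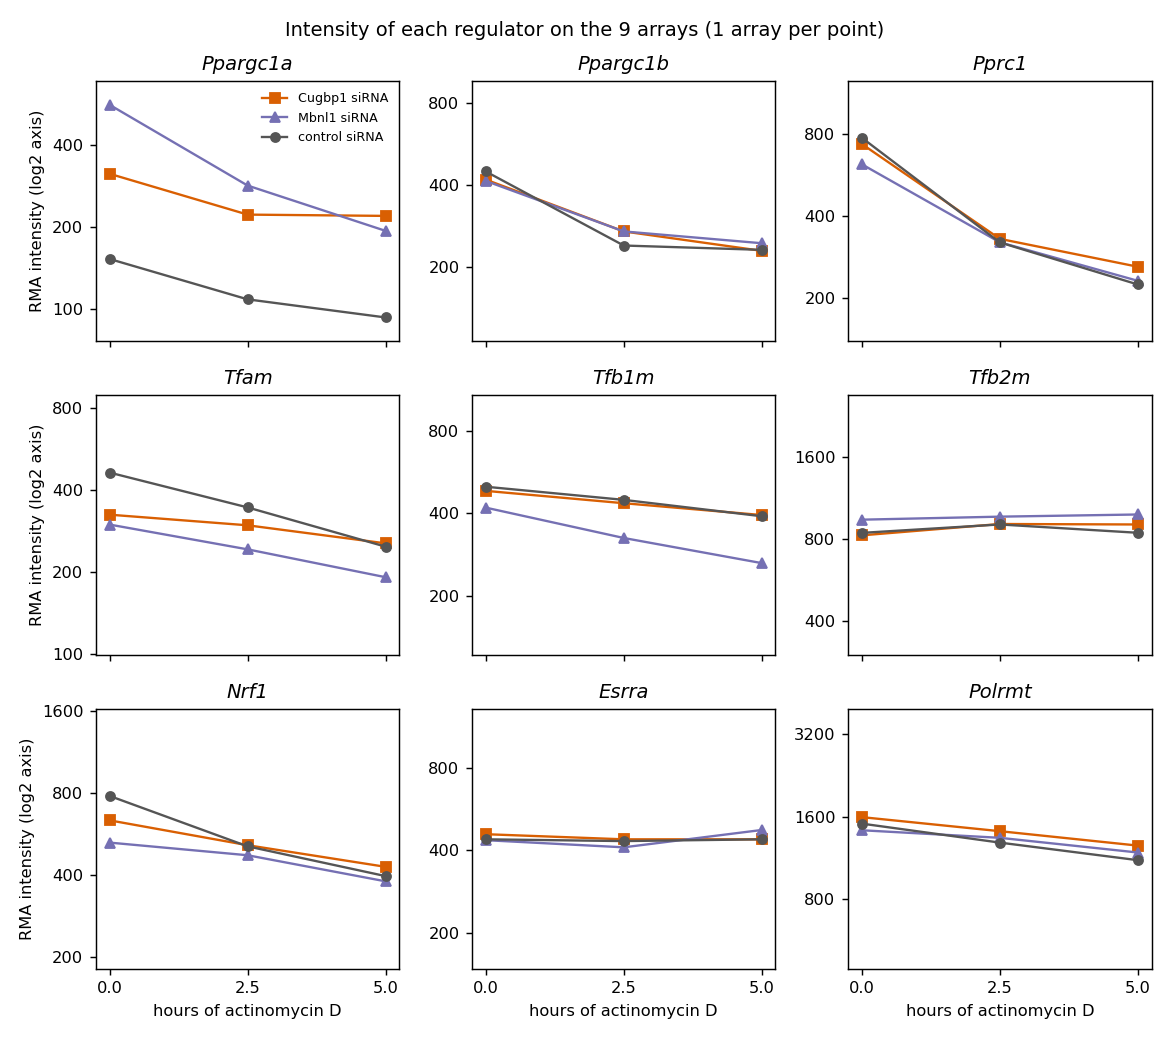
RMA intensity (log2 axis, same span in every panel) of the 9 regulators against hours of actinomycin D, with 1 array per point, for Cugbp1 siRNA (squares), Mbnl1 siRNA (triangles) and control siRNA (circles). The knockdown lines of Ppargc1a lie above the control line throughout, those of Tfb1m separate only for Mbnl1 siRNA, and those of Esrra stay nearly flat.

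Over the 3 times Ppargc1a rose by 1.10 ± 0.16 in cells given Cugbp1 siRNA relative to control siRNA (95% interval 0.73 to 1.48, limma adjusted p = 0.00382). It was the only one of the 9 members called in that comparison, in which 19.2% of all tested genes were called, 10.5% higher and 8.67% lower. With Mbnl1 siRNA it rose by 1.44 ± 0.16 relative to control (1.06 to 1.81, limma adjusted p = 0.000182). The direct difference, Mbnl1 minus Cugbp1 siRNA, was 0.34 ± 0.16 with an interval of −0.04 to 0.71 (adjusted p = 0.111), and did not pass the test. Its control readings lie below the filter, so it was also tested among all 19938 named genes with no filter, where both calls held (limma adjusted p = 0.0131 for Cugbp1 siRNA and 0.000687 for Mbnl1 siRNA). Of the 9864 genes that passed the filter, 9856 had a lower difference than Ppargc1a under Cugbp1 siRNA and 9844 under Mbnl1 siRNA. Ppargc1a is among those genes only through its knockdown arrays, so these ranks are a description. Both comparisons share the control arrays, so a low control reading moves both.

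A second, dimmer probe set of Ppargc1a went the same way. It read 77.8, 58.4 and 51.4 in cells given Cugbp1 siRNA, 152.4, 72.3 and 35.6 in cells given Mbnl1 siRNA, and 41.7, 30.4 and 26.0 in control cells. Each knockdown array was again above the control array of its time, but all 9 readings lay below the filter of 167.13. Tested among all named probe sets with no filter, it differed by 1.19 under Mbnl1 siRNA (limma adjusted p = 0.0126) and by 0.94 under Cugbp1 siRNA, which did not pass (limma adjusted p = 0.0954).

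The other coactivators did not share that pattern. Ppargc1b, the closest relative of Ppargc1a, read 418.0, 269.9 and 229.1 in cells given Cugbp1 siRNA, 413.2, 269.9 and 244.3 in cells given Mbnl1 siRNA and 447.6, 239.6 and 231.0 in control cells. The arms overlap at every level of the decline. Its differences from control were 0.02 ± 0.06 (95% interval −0.12 to 0.16) and 0.05 ± 0.06 (−0.09 to 0.18) under Cugbp1 and Mbnl1 siRNA. Pprc1, the PGC-1 family member induced by serum, read 736.7, 330.9 and 261.5 in cells given Cugbp1 siRNA, 620.7, 321.4 and 232.2 in cells given Mbnl1 siRNA and 776.3, 321.1 and 225.1 in control cells. Apart from a lower reading at 0 h under Mbnl1 siRNA, the 3 arms followed nearly the same course. Its differences from control were 0.06 ± 0.07 and −0.09 ± 0.07, with adjusted p = 0.605 and 0.305 by limma.

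Tfam, which packages mitochondrial DNA, was lower under Mbnl1 siRNA, where Ppargc1a was higher. It read 324.3, 296.5 and 254.6 in cells given Cugbp1 siRNA, 298.3, 242.0 and 191.3 in cells given Mbnl1 siRNA and 462.6, 344.8 and 247.6 in control cells. The Mbnl1 siRNA array was the lowest of the 3 at each time, at 64.5%, 70.2% and 77.3% of control. Tfam fell by 0.51 under Mbnl1 siRNA relative to control (SE 0.09, adjusted p = 0.0016), and the difference from Cugbp1 siRNA, −0.28 ± 0.09, also passed (limma adjusted p = 0.0266). That second call was lost when any single array of the Mbnl1 arm, or the 2.5 h or 5 h array of the Cugbp1 arm, was left out, with values of −0.28 to −0.17. Under Cugbp1 siRNA Tfam was at 70.1%, 86.0% and 103% of control, a mean difference of −0.23 ± 0.09 that did not pass (limma adjusted p = 0.106). It passed when either 5 h array of that pair was left out, at −0.33 in both cases.

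Tfb1m, the ribosomal RNA methyltransferase, was lower under Mbnl1 siRNA than in both other arms. It read 483.9, 436.0 and 394.6 in cells given Cugbp1 siRNA, 420.0, 325.1 and 263.0 in cells given Mbnl1 siRNA and 501.1, 448.5 and 390.6 in control cells. The Cugbp1 arm stood at 96.6% to 101% of control. Tfb1m fell by 0.43 under Mbnl1 siRNA relative to control (SE 0.07, limma adjusted p = 0.00106) and differed by −0.40 ± 0.07 from Cugbp1 siRNA (limma adjusted p = 0.00146). Relative to control it was at 83.8%, 72.5% and 67.3% under Mbnl1 siRNA.

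Tfb2m, the promoter-melting factor, was slightly higher under Mbnl1 siRNA. It read 824.9, 907.7 and 904.1 in cells given Cugbp1 siRNA, 941.5, 965.8 and 983.6 in cells given Mbnl1 siRNA and 842.2, 904.2 and 842.8 in control cells. All 3 Mbnl1 siRNA arrays were above all 6 others. It rose by 0.16 ± 0.04 relative to control (limma adjusted p = 0.0114) and by 0.13 ± 0.04 relative to Cugbp1 siRNA (limma adjusted p = 0.0235). Leaving out the control array at 5 h ended the first call (0.12, adjusted p = 0.0586). The second passed in 12 of 18 alternative settings, and in 5 of the 9 that left out an array, with limma adjusted p up to 0.0935. A second probe set of Tfb2m followed the first closely, with 932.9, 949.9 and 961.9 in the Mbnl1 arm and 834.2, 889.2 and 837.3 in control.

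Nrf1, a nuclear factor that binds many promoters of mitochondrial genes, read 633.0, 513.2 and 427.6 in cells given Cugbp1 siRNA, 524.6, 471.5 and 378.3 in cells given Mbnl1 siRNA and 777.7, 508.3 and 395.4 in control cells. The gap to control was widest at 0 h, where the Mbnl1 arm was at 67.5% and the Cugbp1 arm at 81.4%, and nearly closed by 5 h, at 95.7% and 108%. Nrf1 fell by 0.25 under Mbnl1 siRNA (SE 0.09), with an adjusted p of 0.0498 at the edge of the threshold. Only 6 of 17 alternative settings kept that call, and without the control array at 0 h the difference was −0.11. Under Cugbp1 siRNA the difference was −0.06 ± 0.09 (limma adjusted p = 0.716).

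Neither Polrmt nor Esrra was called between any pair of siRNAs. Polrmt, the mitochondrial RNA polymerase, read 1592, 1414 and 1252 in cells given Cugbp1 siRNA, 1425, 1337 and 1181 in cells given Mbnl1 siRNA and 1507, 1284 and 1107 in control cells. The Cugbp1 arm was the highest at each time, by 0.13 ± 0.04 over control (limma adjusted p = 0.066), which passed in 5 of 17 alternative settings. Esrra, the receptor through which PGC-1 coactivators feed back on their own programme, ranged only from 410.6 to 475.3, and its value of 439.3 was repeated on 4 arrays. Such repeats were common, with 38.1% of all probe sets showing an identical value on at least a pair of arrays. Its differences from control were 0.03 ± 0.05 (95% interval −0.08 to 0.14) under Cugbp1 siRNA and 0.01 ± 0.05 (−0.10 to 0.12) under Mbnl1 siRNA.

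**Figure D2:**
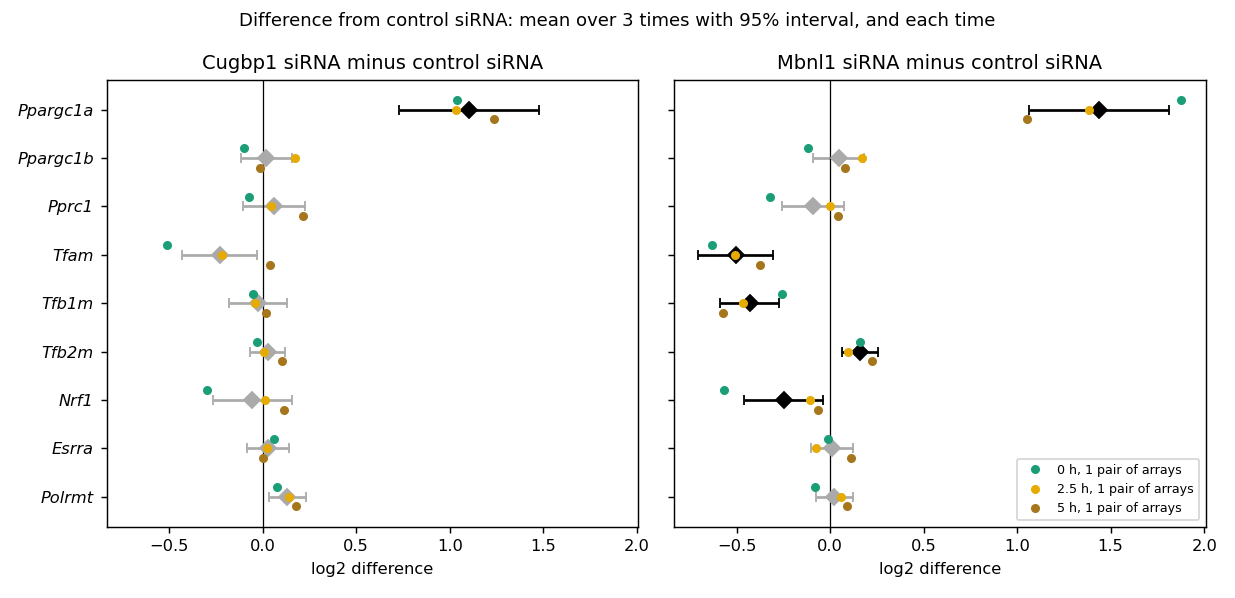
Log2 difference from control siRNA for Cugbp1 siRNA (left) and Mbnl1 siRNA (right): diamonds are the mean over the 3 times with its 95% interval, black where the limma call passed and grey where it did not, and small points are the pairs of arrays at 0, 2.5 and 5 h. Ppargc1a stands apart to the right in both panels, and Tfam and Tfb1m lie to the left of 0 in the right panel.

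Counted together, Mbnl1 siRNA called 5 of the 9 members relative to control, 2 higher and 3 lower, where 55.0% of all tested genes were called, 24.0% higher and 31.0% lower. The median difference of the members was 0.01, beside −0.02 for all genes. Between the knockdowns, Mbnl1 minus Cugbp1 siRNA, 3 of 9 were called, 1 higher and 2 lower, beside 56.4% of all genes, 23.0% higher and 33.4% lower. Shares of this size are close to or below the background. The Mbnl1 arm also carried more transcript of differentiated muscle: all 5 of 9 such markers that passed the filter were higher there, with summed intensities of 3034.6 to 3202.9 for the 9 markers, against 2062.2 to 2276.0 in control arrays and 2189.3 to 2330.3 under Cugbp1 siRNA. Tnni1, a slow troponin, read 309.4, 354.1 and 383.0 under Mbnl1 siRNA and 157.1, 152.8 and 163.3 in control cells, which lay below the filter, so that it passed through the Mbnl1 arm. Myog, a regulator of differentiation, did not pass the filter, with readings of 83.0 to 169.8. It was lowest in the Mbnl1 arm at each time, at 118.1, 85.7 and 83.0. Control cells read 121.9, 112.7 and 96.5, and cells given Cugbp1 siRNA 169.8, 124.2 and 118.7. Of the other markers below the filter, Mylpf was above control at each time under Mbnl1 siRNA, and Myh1 and Myh3 were not. Of the 8 myoblast markers 1 was higher and 3 lower under Mbnl1 siRNA, with Cdh15 at −0.58 ± 0.04, Myod1 at −0.58 ± 0.05 and Vcam1 at −0.37 ± 0.04. The part of this shift in the member differences was not tested. In bulk RNA, fewer cells of a kind and less RNA per cell cannot be told apart. Of the macrophage and leukocyte markers 2 of 6 passed the filter, Cd68 and Cd14, and the pan-leukocyte marker Ptprc read at most 52.6 on any array. The summed level of those 6 was 1128.6 to 1335.6 under Mbnl1 siRNA, 807.6 to 874.9 under Cugbp1 siRNA and 786.4 to 803.7 in control cells, most of it from Cd68, a lysosomal protein.

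In the pooled arms, 7 of 9 fell at 5 h relative to 0 h, where 32.8% of all tested genes fell and 68.4% changed in either direction. The members' median change was −0.63, beside 0.04 for all genes. The same 7 had already fallen at 2.5 h, where 47.4% of all genes were called and 24.2% were lower. That count at 2.5 h was 2 without the Cugbp1 array at 2.5 h and 3 without the control array at 2.5 h. Arrays scaled by RMA show losses relative to the other transcripts and not absolute amounts.

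Pprc1 had the largest pooled fall, although under Mbnl1 siRNA Ppargc1a kept less. At 5 h, 35.5% of its 0 h intensity was left under Cugbp1 siRNA, 37.4% under Mbnl1 siRNA and 29.0% under control siRNA. It fell by 1.13 at 2.5 h and fell by 1.57 at 5 h, relative to 0 h, each with an SE of 0.07 (adjusted p = 1.19e-05 and 9.54e-07 by limma). Only 129 of the 9864 genes had a larger fall at 5 h. The remaining coactivators followed: Ppargc1a fell by 0.92 (SE 0.16) and Ppargc1b by 0.86 (SE 0.06) at 5 h, with limma adjusted p = 0.00141 and 7.92e-06. For Ppargc1b most of that loss came in the first 2.5 h, a fall of 0.72. The later change, 5 h minus 2.5 h, was −0.14 ± 0.06 (limma adjusted p = 0.123).

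Pooled over the arms, the falls of the DNA-binding and mitochondrial factors were smaller. At 5 h the changes were −0.67 ± 0.09 for Nrf1, −0.63 ± 0.09 for Tfam, −0.44 ± 0.07 for Tfb1m and −0.35 ± 0.04 for Polrmt, with limma adjusted p of at most 0.000667. Each of these declined in all 3 arms, with control cells keeping 50.8% of Nrf1, 53.5% of Tfam, 77.9% of Tfb1m and 73.5% of Polrmt. The order differs between arms: in control cells Ppargc1a kept 61.1% and Ppargc1b 51.6%, and differences between members were not tested. In the second interval, 5 h minus 2.5 h, 4 members were called lower, Pprc1, Tfam, Nrf1 and Polrmt, where 21.4% of all genes were called, 17.0% lower and 4.47% higher. The last 3 of these were near the threshold, with adjusted p = 0.0264, 0.0442 and 0.0167 by limma.

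Tfb2m and Esrra were not called at 5 h. Tfb2m kept 110%, 104% and 100% of its 0 h intensity under Cugbp1, Mbnl1 and control siRNA, a mean change of 0.07 ± 0.04. Esrra kept 95.8%, 109% and 100%, a mean change of 0.02 ± 0.05. Their direction depends on scaling. When each array was shifted to the same median of 52 cytosolic ribosomal protein genes, the median of all genes moved by −0.23 at 5 h, and both were then called lower, at −0.17 and −0.21. Under quantile normalization both were called higher, at 0.16 and 0.19.

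**Figure D3:**
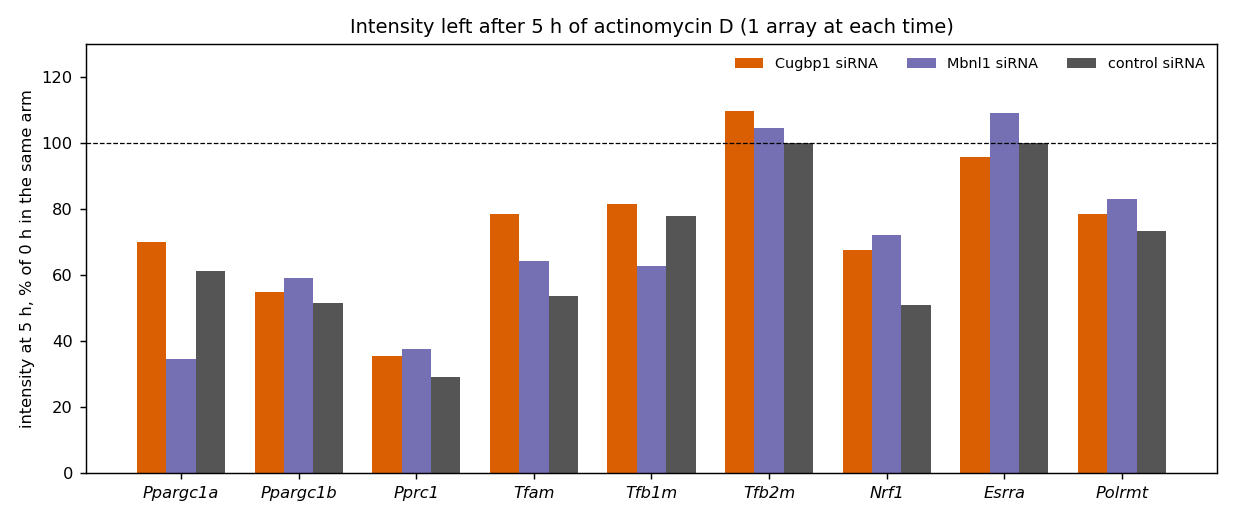
Intensity at 5 h of actinomycin D as a percentage of the 0 h intensity in the same arm, for Cugbp1, Mbnl1 and control siRNA, with bars from 0 and a dashed line at 100%. Pprc1 keeps the least in the Cugbp1 and control arms, Ppargc1a in the Mbnl1 arm at 34.5%, and Tfb2m and Esrra stay near 100%.

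Whether the knockdowns changed the rate of loss was read from the difference in hourly log2 slope. Ppargc1a lost 0.10 per h under Cugbp1 siRNA and 0.31 per h under Mbnl1 siRNA, against 0.14 per h under control siRNA. After 5 h, 70.1%, 34.5% and 61.1% of the starting intensity was left. The slope under Mbnl1 siRNA was steeper than in control by 0.16 ± 0.02 per h (difference −0.16, 95% interval −0.21 to −0.12), with limma adjusted p = 0.0514, which just missed the threshold. Only 16 of 9864 genes had a more negative difference, and 2 genes were called in that comparison, 0.0203% of all tested: Ctns, the lysosomal cystine transporter, at −0.30 ± 0.02, and Dync1li1, a dynein light intermediate chain, also at −0.30 ± 0.02. Without the filter the adjusted p was 0.394. The second probe set kept 66.0%, 23.4% and 62.4% of its 0 h intensity at 5 h under Cugbp1, Mbnl1 and control siRNA. All its readings lay below the filter, too dim for these shares to be relied on. The level of Ppargc1a at 0 h was also highest in the Mbnl1 arm, so the steeper slope starts from a higher intensity, farther from the background of the array. The Cugbp1 arm also started above control, at 313.7 against 152.8, and lost 0.10 per h against 0.14. Whether the starting intensity had a part in the slopes was not tested.

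For the other members no difference in slope was called. Under Mbnl1 siRNA 0 of 9 passed by limma, and 5 had an unadjusted p under 0.05, beside 13.8% of all genes. Tfb1m, like Ppargc1a, had a steeper slope there, by −0.06 ± 0.02 per h (limma adjusted p = 0.179). Nrf1, Pprc1 and Tfam had slopes shallower than control, with differences of 0.10 ± 0.02, 0.07 ± 0.02 and 0.05 ± 0.02 per h. At 0 h under Mbnl1 siRNA these 3 mRNAs stood at 67.5%, 80.0% and 64.5% of control.

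Under Cugbp1 siRNA the hourly slopes of all members but Esrra were at or above those of control, and again 0 of 9 passed by limma, beside 0.0% of all genes. An unadjusted p under 0.05 was reached by 3 members and by 11.4% of all genes. Tfam had the largest difference, 0.11 ± 0.02 per h (95% interval 0.07 to 0.15, limma adjusted p = 0.32), with a lower value in 9834 of the 9864 genes. It kept 78.5% of its 0 h intensity after 5 h, against 53.5% in control cells. Nrf1 followed at 0.08 ± 0.02 per h and Pprc1 at 0.06 ± 0.02 per h. With single arrays left out, the Nrf1 difference ranged from 0.02 to 0.14 per h. Both slope comparisons share the control arrays, so a high control reading at 0 h moves both.

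**Figure D4:**
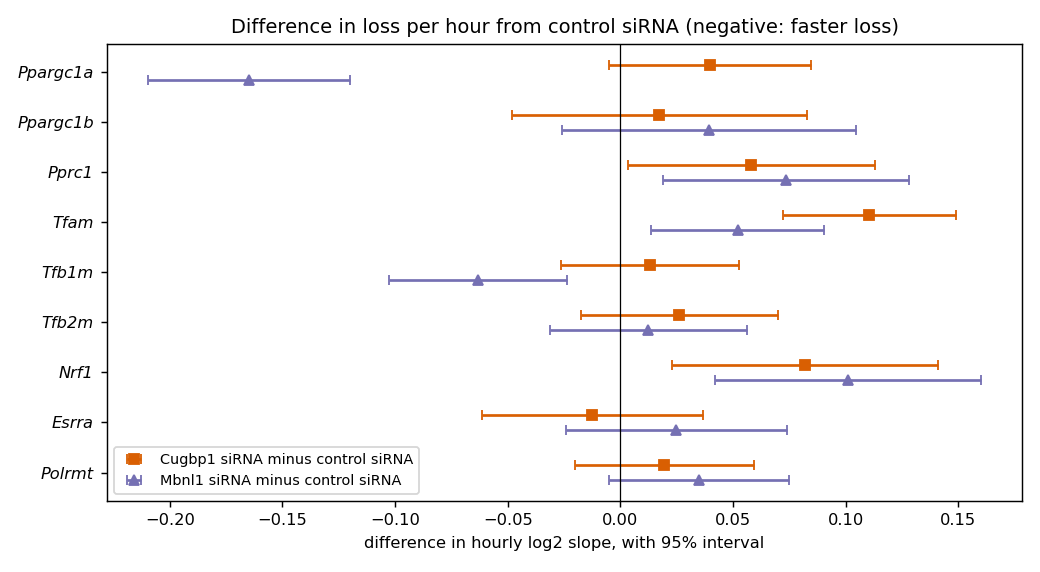
Difference in hourly log2 slope from control siRNA for each regulator, with 95% intervals, for Cugbp1 siRNA (squares) and Mbnl1 siRNA (triangles); negative values mean faster loss than in control cells. Ppargc1a under Mbnl1 siRNA lies farthest to the left at −0.16 per h and Tfam under Cugbp1 siRNA farthest to the right at 0.11 per h.

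The members fell into a few patterns over the 9 arrays. Ppargc1b and Pprc1 were the most alike, with a Pearson r of 0.976, and Nrf1 was close to Tfam (0.919) and Pprc1 (0.916). Tfb2m ran against Tfb1m at −0.772. Ppargc1a was near 0 with Tfam (−0.079), Tfb1m (−0.031) and Esrra (−0.037). All such values describe 9 arrays that share 3 siRNAs and 3 times.

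Among all other tested genes, those most like Ppargc1a were Spint1, an inhibitor of membrane serine proteases, at r = 0.985, Glis3, a zinc finger transcription factor, at 0.979, and Slc40a1, the iron exporter ferroportin, at 0.978. Tbcel, a tubulin cofactor-like protein, followed at 0.965 and Usp19, a deubiquitinase, at 0.962. Their changes were smaller: Slc40a1 read 228.8, 231.9 and 190.0 in cells given Cugbp1 siRNA, 355.8, 241.8 and 166.0 in cells given Mbnl1 siRNA and 145.6, 117.9 and 114.9 in control cells. Its differences from control were 0.78 under Cugbp1 siRNA and 0.95 under Mbnl1 siRNA, and those of Spint1 were 0.22 and 0.29. These genes were chosen for their likeness over the same arrays, so the values are a description. The control readings of Slc40a1, like those of Ppargc1a, all lay below the filter. For the other members the single most similar gene was Phf23 for Ppargc1b (0.991), Brd1 for Pprc1 (0.997), D10Wsu102e for Tfam (0.982), Nav1 for Tfb1m (0.997), Slc39a8 for Tfb2m (0.972), Trip10 for Nrf1 (0.986), Map3k10 for Esrra (0.831) and Sipa1l2 for Polrmt (0.988). Nav1, a neuron navigator, read 2116.8, 1620.0 and 1185.5 in cells given Mbnl1 siRNA, against 2686.1, 2312.3 and 2014.4 in control cells.

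Around the members, 7 lists of genes were read by the same tests. Of all tested genes, 10.5% were higher and 8.67% lower under Cugbp1 siRNA, 24.0% and 31.0% under Mbnl1 siRNA, and 35.6% and 32.8% at 5 h relative to 0 h. Upstream regulators of Ppargc1a, 22 of 26 tested, had 1 gene higher and 3 lower under Cugbp1 siRNA, and 3 higher and 10 lower under Mbnl1 siRNA. The medians were −0.02 and −0.10, beside 0.01 and −0.02 for all genes. Prkaa2, the catalytic AMPK subunit typical of muscle, rose by 0.50 ± 0.05 under Mbnl1 siRNA (397.8, 399.4 and 465.4, against 263.4, 315.2 and 315.2 in control cells). Mef2a, a myogenic factor that acts on the Ppargc1a promoter, rose by 0.35 ± 0.04, and Mapk14, the p38 kinase that activates the PGC-1 protein, fell by 0.35 (SE 0.04). Under Cugbp1 siRNA the AMPK subunit Prkab2 and Mapk14 fell by 0.30 (SE 0.05) and 0.16 (SE 0.04), and the CREB coactivator Crtc1 rose by 0.17 ± 0.05. In the arrest, 3 of this list were higher and 11 lower at 5 h. Sirt1, a deacetylase of PGC-1, fell by 1.17 (SE 0.07) and Nrip1, a corepressor that opposes it, by 1.04 (SE 0.10).

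Of the partner transcription factors and coactivators 18 of 22 were tested, with 4 higher and 0 lower under Cugbp1 siRNA, and 2 higher and 7 lower under Mbnl1 siRNA. Rxra, the common partner of nuclear receptors, rose by 0.36 ± 0.07 under Cugbp1 siRNA (644.3, 455.7 and 399.2, against 518.5, 378.9 and 284.1 in control cells). Between the knockdowns it differed by −0.60 ± 0.07 (Mbnl1 minus Cugbp1 siRNA, limma adjusted p = 0.000171). Med1, the Mediator subunit that nuclear receptors contact, rose by 0.24 ± 0.03. Thra, a thyroid hormone receptor, rose under both, by 0.19 ± 0.05 under Cugbp1 siRNA and 0.36 ± 0.05 under Mbnl1 siRNA, and the first call was lost with equal ribosomal protein medians (limma adjusted p = 0.0658). Gabpb2, a subunit of the ETS factor GABP, and the transcriptional coregulator Hcfc1 fell under Mbnl1 siRNA by 0.35 and 0.34, each with an SE of 0.04. At 5 h, 1 was higher and 12 lower, led by Foxo1 at −1.10 ± 0.09 and by the acetyltransferase Ep300 at −0.93 ± 0.07.

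The genes of mitochondrial DNA maintenance and transcription, 17 of 23 tested, had 3 higher and 1 lower under Cugbp1 siRNA and 2 higher and 7 lower under Mbnl1 siRNA. Tefm, the elongation factor that works with Polrmt, read 417.7, 178.2 and 124.0 in cells given Cugbp1 siRNA, 282.9, 118.1 and 87.2 in cells given Mbnl1 siRNA and 338.4, 135.8 and 92.2 in control cells. It was the fastest lost gene of the list, with a change of −1.78 ± 0.04 at 5 h. Tefm rose by 0.37 ± 0.04 under Cugbp1 siRNA and was lower under Mbnl1 than under Cugbp1 siRNA by 0.55 (difference −0.55 ± 0.04). Its mean log2 value lay below the filter in control cells and under Mbnl1 siRNA, so it passed through the Cugbp1 arm. Both siRNA differences of Tefm are therefore a description. Mterf3, a repressor of mitochondrial transcription, fell by 1.49 (SE 0.06) at 5 h. Lonp1, the matrix protease that degrades Tfam protein, rose by 0.25 ± 0.05 under Cugbp1 siRNA and by 0.37 ± 0.05 under Mbnl1 siRNA. Dna2, a nuclease and helicase, fell by 0.44 (SE 0.05) under Mbnl1 siRNA.

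Mitochondrial RNA processing and stability genes, 18 of 19 tested, had 2 higher and 0 lower under Cugbp1 siRNA and 3 higher and 7 lower under Mbnl1 siRNA. Fastk, which is needed for the stability of a mitochondrial mRNA, read 1233.5, 1182.3 and 1109.4 in cells given Mbnl1 siRNA, against 2383.3, 2602.2 and 2699.6 in control cells. It fell by 1.12 (SE 0.07, limma adjusted p = 9.51e-06), with no overlap of the arms. Slirp, an RNA-binding partner of Lrpprc, rose by 0.19 ± 0.05 under Cugbp1 siRNA. At 5 h, 3 were higher and 9 lower, and Trmt10c, a subunit of mitochondrial RNase P, fell by 1.46 (SE 0.13).

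The 28 import genes, all tested, had 2 higher and 0 lower under Cugbp1 siRNA, and 9 higher and 6 lower under Mbnl1 siRNA. The intermembrane space chaperone Timm8a1 and the oxidoreductase Chchd4 fell by 0.44 (SE 0.06) and 0.43 (SE 0.05) under Mbnl1 siRNA, while Pam16 of the import motor rose by 0.35 ± 0.06. At 5 h 13 were higher and 5 lower. Of 15 tested genes of mitochondrial dynamics and mitophagy, 1 was higher and 0 lower under Cugbp1 siRNA and 4 were higher and 4 lower under Mbnl1 siRNA, among them the mitochondrial deubiquitinase Usp30, which fell by 0.50 (SE 0.07). At 5 h, 6 were higher and 4 lower.

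Metabolic genes that respond to PGC-1 coactivators, 18 of 27 tested, had 3 higher and 2 lower under Cugbp1 siRNA, and 8 higher and 1 lower under Mbnl1 siRNA. The medians were 0.07 and 0.10, beside 0.01 and −0.02 for all genes. Pdk4, the kinase that shuts off pyruvate oxidation, read 770.2, 370.7 and 352.1 in cells given Cugbp1 siRNA, 2458.6, 1391.6 and 1269.8 in cells given Mbnl1 siRNA and 1187.0, 594.6 and 470.9 in control cells. At each time the Mbnl1 arm was the highest and the Cugbp1 arm the lowest, although Ppargc1a was above control in both. Pdk4 rose by 1.24 ± 0.07 under Mbnl1 siRNA and fell by 0.58 (SE 0.07) under Cugbp1 siRNA, with limma adjusted p = 7.12e-06 and 0.00172. The difference between the knockdowns was 1.81 ± 0.07 (Mbnl1 minus Cugbp1 siRNA, adjusted p = 1.67e-06). The acyl-CoA dehydrogenases Acadl and Acadm rose by 0.35 ± 0.05 and 0.34 ± 0.04 under Mbnl1 siRNA. Catalase (Cat) and lipoprotein lipase (Lpl) rose by 0.40 ± 0.05 and 0.35 ± 0.04 under Cugbp1 siRNA.

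At 5 h 13 of those 18 metabolic genes were higher and 3 lower, Pdk4, Vegfa and Hk2, with a median of 0.18, beside 35.6% of all genes higher and 32.8% lower. With equal ribosomal protein medians the same list had 2 higher and 5 lower, the import genes 2 higher and 13 lower, and the dynamics genes 0 higher and 8 lower. The members had 0 higher and 9 lower, the upstream regulators 0 and 18, the partners 0 and 17, the mitochondrial DNA genes 0 and 11, and the RNA processing genes 0 and 14. Over all tested genes that scaling called 2.85% higher and 59.4% lower at 5 h. Under Cugbp1 siRNA this scaling left 0 higher and 1 lower of the upstream regulators, and 2 higher and 0 lower of the partners. It left 0 of the RNA processing and dynamics genes there, beside 5.29% of all tested genes higher and 7.22% lower. Under Mbnl1 siRNA it left 7 higher and 0 lower of the metabolic genes, beside 21.6% and 27.6% of all tested genes. The direction of small changes over time in any of these lists thus depends on the scaling.

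**Figure D5:**
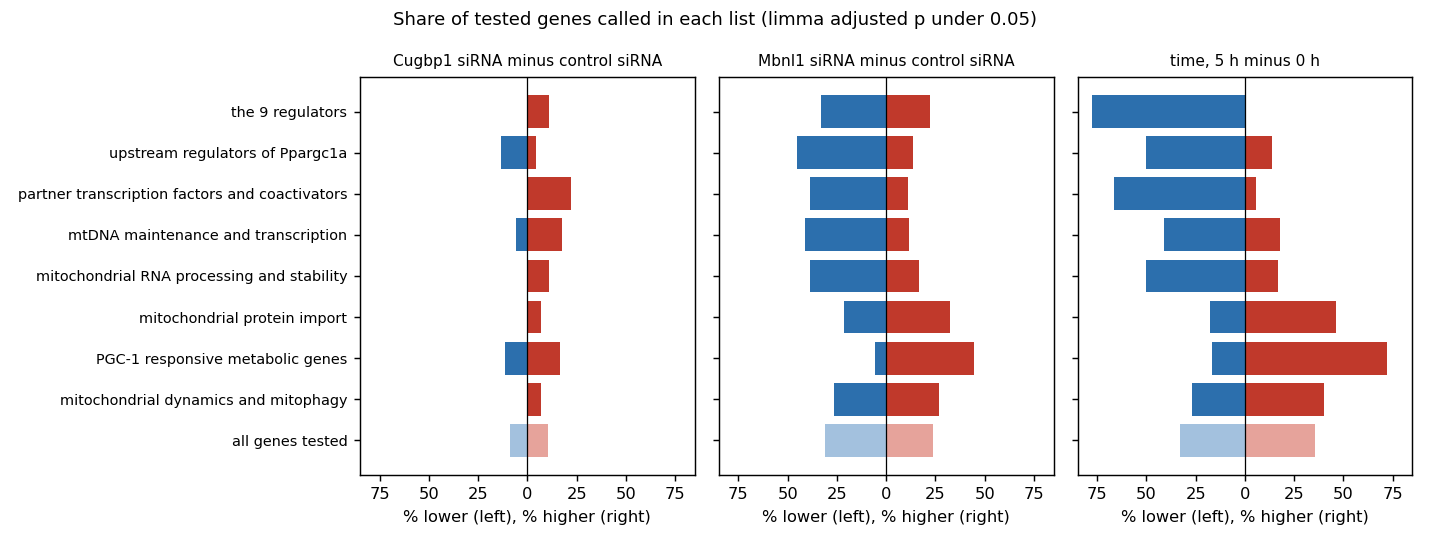
Share of the tested genes of each list called lower (bars to the left) and higher (bars to the right) in 3 comparisons, as deposited; the pale bars at the bottom are all 9864 tested genes. The 9 regulators have the largest share of falls at 5 h, 7 of 9, and the metabolic genes the largest share of rises, 13 of 18.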

How the data were processed

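Biotin-labelled cDNA from 100 ng of RNA per culture was hybridised to whole-transcript mouse arrays, per the labels' protocols. The authors summarised 35556 probe sets with RMA in Affymetrix Expression Console, per the submitters' processing notes, whose version is not stated there. The deposited values were taken as linear intensity from their range, and log2 was computed from them here. Detection calls were not used here. Annotation gave 1 symbol to 21789 probe sets, several to 1621 and none to 12146.

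The brightest probe set stood for a gene, and genes were tested where its mean log2 value was at least 7.38, the 50th percentile of named probe sets. limma 3.58.1 in R 4.3.3 fitted siRNA and time as additive terms, with 4 residual degrees of freedom. The decay model added an hourly slope per knockdown, with 2 left. With 1 array per combination, p-values measure only the variation of siRNA effects over time, not the spread between cultures. Benjamini-Hochberg adjustment ran over 9864 genes, with calls at an adjusted p under 0.05. Precision is limited by how few arrays there are. The fits were tested on simulated data.

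Named genes were every member and siRNA target, the 3 called genes of largest change per list and comparison, the 5 genes most like Ppargc1a and the 1 most like each other member. Marker genes beside a result and single genes of lists with few calls were also named. The members and lists were chosen with earlier results of these data known. Alternatives changed the filter, the probe set rule, the scaling, the variance prior and the arrays included.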

Additional observations from a re-analysis of the deposited data

How the results depend on the processing

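Over 1199 alternative values for single members, 1098 kept their side of the threshold, 65 lost a call, 34 gained one and 2 reversed with a call. The 1098 include values that changed direction where neither fit was called. They also include slope differences computed without a test, which kept their direction and lay within the SE of the main value. The reversals were Tfb2m at −0.1686 and Esrra at −0.2135 (5 h minus 0 h) with equal ribosomal protein medians. Under Cugbp1 siRNA relative to control, 1 member was called. Averaging probe sets gave 0, because Ppargc1a then fell below the filter, the eBayes trend gave 2, with or without the robust option, and leaving out single arrays gave 1 to 2. Under Mbnl1 siRNA relative to control, 5 were called, 3 with the filter at the 60th percentile, which left 6 members to test, and 4 without any single array. Between the knockdowns, 3 were called, 1 without a filter and 1 to 6 without single arrays: 6 without the control array at 0 h, and 1 without the Cugbp1 array at 2.5 h or the Mbnl1 array at 0 h. At 2.5 h minus 0 h, 7 were called, 4 with the stricter filter and 2 to 7 without single arrays: 2 without the Cugbp1 and 3 without the control array at 2.5 h. At 5 h minus 0 h, 7 were called, 4 with the stricter filter and 7 without any single array. At 5 h minus 2.5 h, 4 were called, 1 without a filter, 7 with equal ribosomal protein medians and 1 to 5 without single arrays. The count was 1 without any 2.5 h array or the control array at 5 h, and 2 without the Mbnl1 array at 5 h. For the slope difference under Mbnl1 siRNA, 0 were called, 2 with equal ribosomal protein medians, 1 with the eBayes trend, 1 with trend and robust together, and 0 to 2 without single arrays. Ppargc1a passed there in 4 of 16 alternatives, with limma adjusted p from 0.00959 to 0.66. Over all genes, that slope difference was called for 2, and with equal ribosomal protein medians for 11 higher and 284 lower. Both calls without the Mbnl1 array at 2.5 h were Ppargc1a and Nrf1. For the slope difference under Cugbp1 siRNA, 0 were called without any single array. Where no cause is given, the cause was not tested. The second probe set of Ppargc1a and Tfb2m was added as an alternative after seeing the data. Time was a term in every fit, so arms were compared within time. The labels give no replicate numbers for a further block.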
